A study of Mus musculus with 18 samples.

Results

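The genes described here serve the folding of proteins in the endoplasmic reticulum (ER) and the unfolded protein response. They are 38 genes taken by symbol from an expression table of 34896 genes, and comprise 8 chaperones and co-chaperones, 2 lectin chaperones, 6 genes of disulfide formation, 11 of the translocon and signal peptidase, 7 sensors and response factors and 4 of ER-associated degradation (ERAD). RNA-seq was available for 3 stages of neutrophil differentiation with 3 libraries each: GMPs (granulocyte-monocyte progenitors), preNeu cells (pre-neutrophils) and matNeu cells (mature neutrophils), all sorted from the bone marrow of WT C57BL/6 mice aged 6 to 12 weeks. ChIP-seq of CHD4, the ATPase of the NuRD complex, was made from WT and from Gfi1-/- GMPs of this strain and age, ChIP-seq of H3K4me2 from WT cells of the 3 stages and ATAC-seq from WT preNeu and matNeu cells, with 1 library each. Gfi1-/- cells thus enter only through 1 CHD4 library. The study isolated GMPs as lin- cKIT+ SCA- CD16/32+ CD34+ cells.

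The sample titles were followed here, because a further label field names another stage for 13 of the 18 samples, all 9 RNA-seq libraries included. Most of the stage markers examined went with the titles. Cd34 stood at 425 to 498 TPM (transcript abundance corrected for length and scaled to the library) in the libraries titled GMP and at no more than 3.27 TPM in the other 6, Fcnb at 3532 to 4049 TPM in preNeu libraries against at most 42.2 TPM elsewhere, and Cxcr2 at 3027 to 3976 TPM in matNeu libraries against at most 93.4 TPM elsewhere. By the limma calls described below, 5 of 5 GMP markers fell from GMPs to preNeu cells. From GMPs to matNeu cells 4 fell and 1 rose, and their mean sum was 1757 TPM in GMPs and 3061 TPM in matNeu cells. Of 6 preNeu markers, 5 rose from GMPs to preNeu cells and 6 fell from there to matNeu cells. Their mean sums were 7763, 8022 and 60.0 TPM over the stages. Of 6 matNeu markers, 6 rose from preNeu to matNeu cells. Libraries of the same stage correlated at 0.961 to 0.971 across genes. No label says that the libraries came from separate animals, so that the p-values measure the spread between these libraries only. TPM keeps no read depth. In sorted bulk cells, fewer cells of a type and less RNA per cell cannot be told apart.

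Secreted and granule proteins enter the ER through the SEC61 channel, lose their signal peptide, receive glycans and disulfide bonds and fold with the help of BiP, GRP94 and the lectin chaperones. When unfolded proteins build up, the sensors IRE1, PERK and ATF6 raise the transcription of chaperones through XBP1, ATF6 and ATF4, slow translation, and direct misfolded proteins to degradation. Neutrophil precursors make their granule proteins in waves, primary granules before secondary granules, and mature neutrophils carry the finished granules.

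The 38 genes together held 15966, 16629 and 15211 TPM in the GMP libraries, 4483, 4964 and 5428 TPM in the preNeu libraries and 2002, 1803 and 2152 TPM in the matNeu libraries. Their sum thus fell 3.21-fold from GMPs to preNeu cells and 2.50-fold from there to matNeu cells, with no overlap between stages. It made up 1.59%, 0.496% and 0.199% of the library. The 8 primary granule genes examined beside them, Mpo and Elane among them, summed to 47424 ± 1120, 9874 ± 555 and 48.3 ± 20.2 TPM (SD, n = 3 per stage). The 8 secondary granule genes (Ltf, Camp, Ngp, Lcn2, Chil3, Cybb, Mmp8 and Mmp9) summed to 165 ± 35.7, 159080 ± 12920 and 19081 ± 1869 TPM. By the limma calls, 6 of these 8 fell and 2 rose from preNeu to matNeu cells, with log2 changes from −7.66 to 5.01. The 2 that rose were Mmp8 and Mmp9, which are also among the matNeu markers above, so that the matNeu sum mixes both courses. The ER genes therefore stood highest with the primary granule genes in GMPs and had already dropped in preNeu cells, where the secondary granule genes took 15.9% of the library. Set against both granule lists, each TPM of the 38 genes faced 2.99 ± 0.20 TPM of granule genes in GMPs, 34.4 ± 5.85 TPM in preNeu cells and 9.74 ± 1.83 TPM in matNeu cells (SD, n = 3 per stage).

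**Figure D1:**
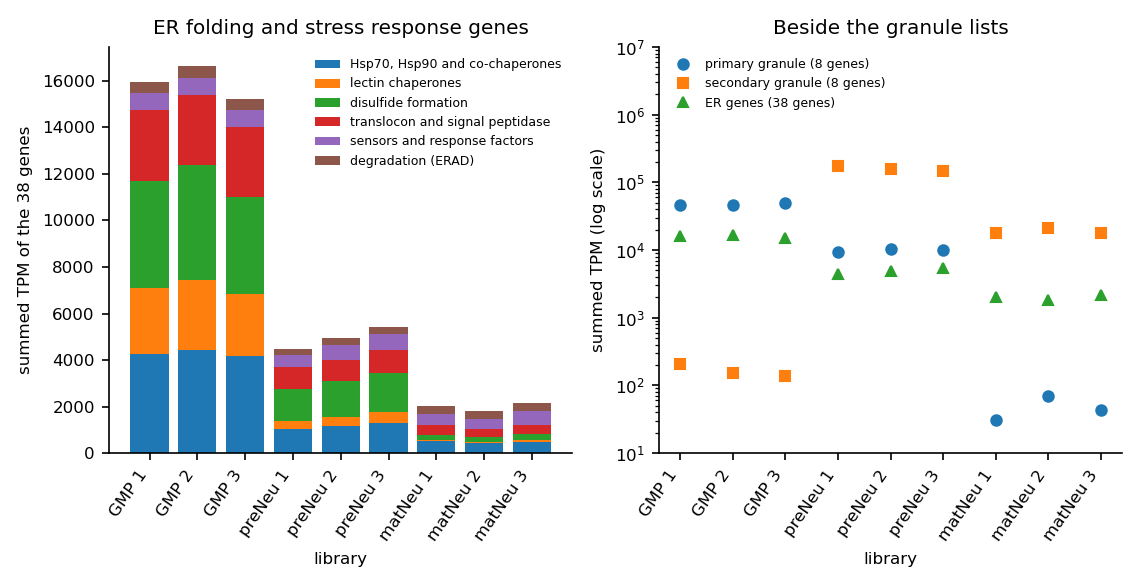
Summed TPM in each of the 9 RNA-seq libraries: on the left the 38 ER genes as stacked bars coloured by role, on the right the same sum (triangles) beside the primary (circles) and secondary (squares) granule genes on a log axis. The bars fall from 15211 to 16629 TPM in GMPs to at most 2152 TPM in matNeu libraries, while the secondary granule sum peaks in preNeu cells.

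Of the 38 genes, all of which passed the filter of at least 1 TPM in at least 3 libraries, 32 fell, 3 rose and 3 were not called between GMPs and preNeu cells (limma on log2(TPM + 1), Benjamini-Hochberg adjusted p under 0.05). Over all 13061 genes tested, 44.3% fell and 14.7% rose in this comparison, against 84.2% and 7.89% of the 38 genes. From preNeu to matNeu cells 27 fell and 6 rose (71.1% and 15.8%), beside 39.8% and 22.9% of all genes. From GMPs to matNeu cells 32 fell and 3 rose (84.2% and 7.89%), beside 54.1% and 22.8% of all genes. The median log2 change of the 38 genes was −1.55, −1.33 and −2.50 in the 3 comparisons, and that of all genes tested −0.52, −0.32 and −0.92, and the ER genes differed from it by −1.03, −1.01 and −1.57. At both steps in turn 22 of the 38 genes fell (57.9%), against 22.2% of all genes. The libraries of the 2 stages compared did not overlap in 35, 34 and 36 of the 38 genes. This was also so for 65.5%, 66.6% and 78.6% of all genes tested, so that a lack of overlap was common.

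Few genes take a large part of preNeu libraries, and the balance of higher and lower calls depended on the scaling of the libraries. With size factors from medians of ratios, 3033 genes rose and 3611 fell from GMPs to preNeu cells where the TPM scale gave 1925 and 5781, and the median of all genes moved from −0.52 to −0.076. With each library centred on its median gene, 3828 genes rose and 3166 fell. More ER genes fell than rose on these scales too: on the size-factor scale 4 rose and 24 fell between GMPs and preNeu cells, 8 rose and 24 fell between preNeu and matNeu cells, and 6 rose and 26 fell between GMPs and matNeu cells. On the median-centred scale these counts were 5 and 23, 8 and 19, and 9 and 23. Of all genes called from preNeu to matNeu cells, 36.5% were higher on the TPM scale, 47.6% with size factors and 63.0% after centring, and from GMPs to matNeu cells 29.6%, 46.0% and 59.7%. Without the granule lists and the 20 most abundant genes, 39.4% of the genes called between GMPs and preNeu cells were higher, against 25.0% on the TPM scale. From preNeu to matNeu cells this share went the other way, to 29.3% from 36.5%. From GMPs to matNeu cells it was 31.2%, close to the 29.6% on the TPM scale. The falls of 23 of 32 genes from GMPs to preNeu cells, 19 of 27 from preNeu to matNeu cells and 23 of 32 from GMPs to matNeu cells were called under each of the 3 other scalings. Those of Dnajb11, Sec61b, Sec61g, Sec63, Spcs1, Atf6, Ddit3, Syvn1 and Sel1l were lost under at least 1 of them in the first comparison, and those of Hspa5, Sec61a1, Sec61g, Sec62, Sec63, Spcs1, Atf4 and Edem1 in the second. From GMPs to matNeu cells those of Sec61b, Sec62, Sec63, Spcs1, Atf6 and Xbp1 were lost, that of Sel1l was lost with size factors and turned to a called rise of 0.83 after centring, Atf4 did likewise (0.59 after centring), and Herpud1 turned from −0.61 to called rises of 0.27 with size factors and 0.78 after centring. Every rise called on the TPM scale was also called on these scales.

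**Figure D2:**
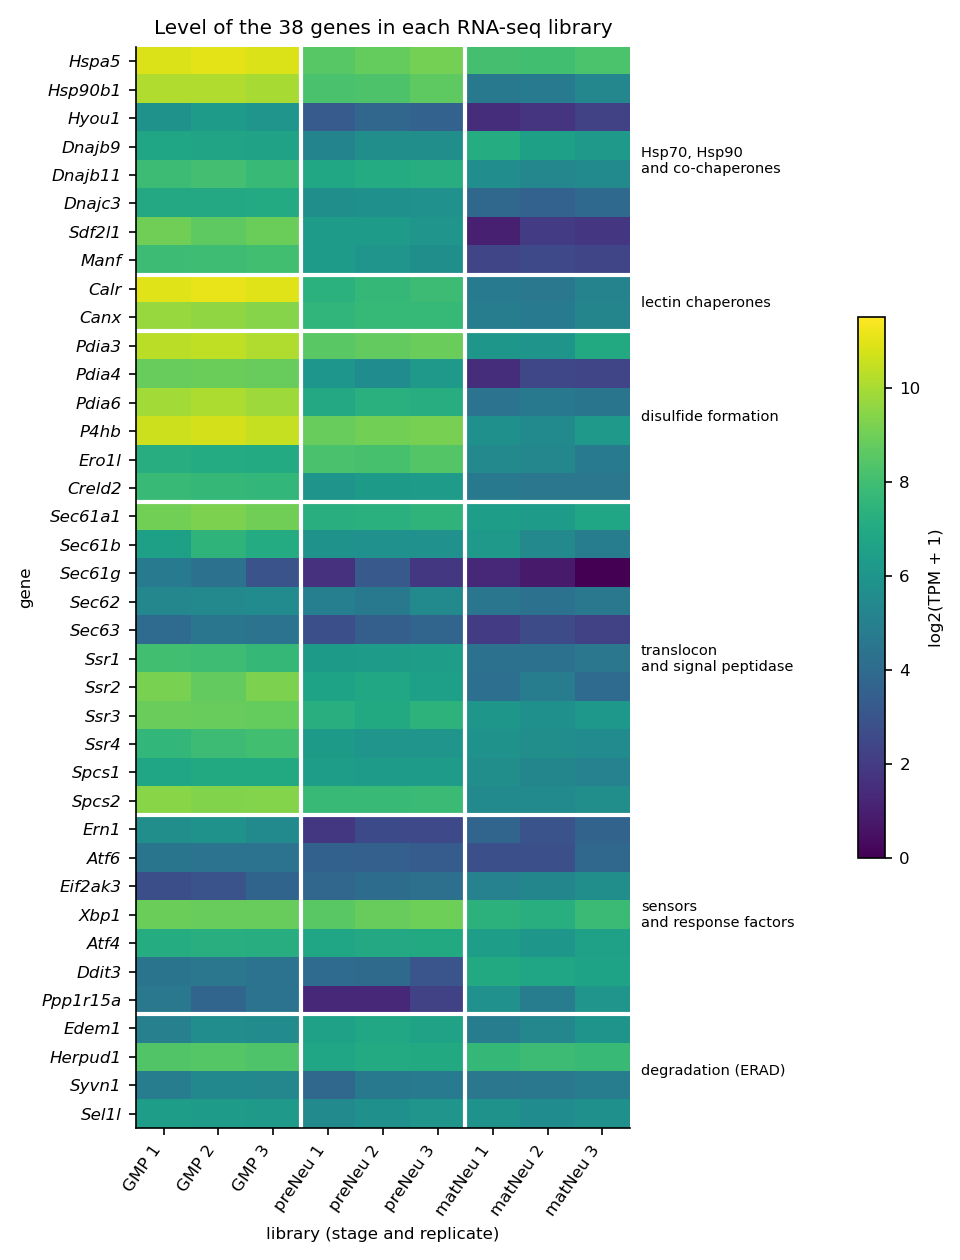
Level of each of the 38 genes, as log2(TPM + 1), in the 9 RNA-seq libraries, ordered by role. Most rows darken from left to right, and Ero1l, Edem1, Eif2ak3, Ddit3 and Ppp1r15a do not.

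Promoters of ER chaperones are known to carry the ER stress element (ERSE), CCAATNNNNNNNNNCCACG, which NF-Y and ATF6 bind, or the shorter ERSE-II, in which ATTGG and CCACG stand with any 1 base between them. Both were searched in RefSeq promoter windows (GRCm38.p6, 250 bp before to 50 bp after the start, both strands), which were found for 33 of the 38 genes. Hyou1, Manf, Sec61a1, Ssr2 and Atf6 had no window. The ERSE letters stood in 8 of 33 windows (24.2%), against 37 of 27025 genes with a window (0.137%). ERSE-II stood in 2 of 33 (6.06%), against 0.0444% of all genes. As both elements are known from promoters of ER chaperones, their higher shares among genes chosen for ER roles are no independent result. The core of the UPRE, TGACGTG, stood in 1 of 33 (3.03%) beside 2.22% of all genes, and the ATF4 element TGATGNAA in 1 of 33 (3.03%) beside 4.51%. No matches within a window overlapped. The ERSE and ERSE-II sites are shown with 10 bases on either side, read in the direction of the motif, to let the shared letters (capitals) and the free spacer between them be compared.
Hspa5 (ERSE, −65 to −47 from the start): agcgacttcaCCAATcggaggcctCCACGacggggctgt
Hsp90b1 (ERSE, −212 to −194): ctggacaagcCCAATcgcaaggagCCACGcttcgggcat
Hsp90b1 (ERSE on the other strand, −107 to −89): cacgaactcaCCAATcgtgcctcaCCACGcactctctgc
Dnajc3 (ERSE, −105 to −87): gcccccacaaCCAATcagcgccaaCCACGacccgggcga
Calr (ERSE on the other strand, −162 to −144): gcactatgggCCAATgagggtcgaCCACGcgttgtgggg
Canx (ERSE, −145 to −127): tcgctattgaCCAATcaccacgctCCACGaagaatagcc
Pdia6 (ERSE, −98 to −80): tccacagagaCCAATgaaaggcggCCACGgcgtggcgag
Creld2 (ERSE on the other strand, −126 to −108): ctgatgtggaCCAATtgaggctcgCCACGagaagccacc
Syvn1 (ERSE, −44 to −26): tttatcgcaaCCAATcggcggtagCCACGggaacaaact
Dnajb11 (ERSE-II, 8 to 18 after the start): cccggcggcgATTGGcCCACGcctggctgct
Herpud1 (ERSE-II, −52 to −42): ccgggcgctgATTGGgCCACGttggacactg

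For 4 promoters that the results below return to, the 250 bases before the start are given in the direction of the gene, with the letters of every match in capitals: Hspa5, which holds an ERSE and the UPRE core, Hsp90b1 with 2 ERSE matches, Herpud1 with an ERSE-II and, on the other strand, an ATF4 element, and Ero1l, which rose in preNeu cells and had none of the 4 motifs.
Hspa5 (chr2:34771840-34772089, + strand): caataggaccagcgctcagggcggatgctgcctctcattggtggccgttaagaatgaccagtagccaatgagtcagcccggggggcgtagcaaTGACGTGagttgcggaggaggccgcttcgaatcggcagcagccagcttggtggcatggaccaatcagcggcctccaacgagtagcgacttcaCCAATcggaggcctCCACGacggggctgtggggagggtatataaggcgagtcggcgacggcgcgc
Hsp90b1 (chr10:86705445-86705694, − strand): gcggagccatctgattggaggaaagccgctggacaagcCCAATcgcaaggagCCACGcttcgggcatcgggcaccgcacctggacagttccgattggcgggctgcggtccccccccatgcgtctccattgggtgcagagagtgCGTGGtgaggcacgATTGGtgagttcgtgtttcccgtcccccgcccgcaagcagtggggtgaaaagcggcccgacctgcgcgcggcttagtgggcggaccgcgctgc
Herpud1 (chr8:94386179-94386428, + strand): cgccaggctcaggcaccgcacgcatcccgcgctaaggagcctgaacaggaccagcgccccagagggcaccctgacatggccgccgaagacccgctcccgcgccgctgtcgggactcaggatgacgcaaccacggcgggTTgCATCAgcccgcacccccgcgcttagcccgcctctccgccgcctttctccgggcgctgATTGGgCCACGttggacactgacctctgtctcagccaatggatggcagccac
Ero1l (chr14:45318573-45318822, − strand): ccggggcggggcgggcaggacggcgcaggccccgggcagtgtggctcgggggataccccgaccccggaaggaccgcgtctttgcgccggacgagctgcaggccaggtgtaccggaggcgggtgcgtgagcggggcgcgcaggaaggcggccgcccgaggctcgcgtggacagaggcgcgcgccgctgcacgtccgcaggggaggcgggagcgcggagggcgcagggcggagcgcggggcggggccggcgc

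On the TPM scale the 10 genes with an ERSE or ERSE-II all fell between GMPs and preNeu cells, beside 44.3% of all genes, with a median log2 change of −1.61. Between preNeu and matNeu cells 8 fell and 1 rose, beside 39.8% and 22.9% of all genes, with a median of −1.79. The falls of Dnajb11 and Syvn1 at the first step and of Hspa5 at the second were lost under at least 1 other scaling. Of the 23 genes whose window held neither, 17 fell and 3 rose at the first step, with a median of −1.21, and 15 fell and 5 rose at the second, with a median of −1.02. The genes with and without an element also differ in role, and a difference between them was not tested. A match of letters is a description of these windows and not a bound site.

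The chaperones that act on unfolded chains in the ER lumen were abundant in GMPs and fell in preNeu cells in 8 of 8 cases. Hspa5 encodes BiP, the Hsp70 of the ER. It stood at 1879, 2092 and 1913 TPM in GMPs, 365, 444 and 540.4 TPM in preNeu cells and 279, 256 and 306 TPM in matNeu cells. The stages did not overlap, and most of the change lay at the first step (log2 change −2.14, SE 0.14, adjusted p = 8.89e-07), against −0.67 at the second (SE 0.14, adjusted p = 0.00181), a fall that was not called on the median-centred scale, where it turned to 0.098. Hspa5 was thus the most abundant of the 38 genes in matNeu cells. Hsp90b1, the ER Hsp90 known as GRP94, had 1104, 1132 and 1034 TPM in GMPs, 289.8, 315 and 400.3 TPM in preNeu cells and 24.2, 25.3 and 38.7 TPM in matNeu cells. In contrast to Hspa5, its larger fall came at the second step (−1.71, then −3.48, SE 0.18 each, adjusted p = 2.19e-05 and 5.03e-08).

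The partners that help BiP to bind and release its clients went the same way. Hyou1, an exchange factor of BiP, had 59.9, 77.4 and 63.6 TPM in GMPs, 8.80, 12.8 and 11.4 TPM in preNeu cells and 1.85, 2.45 and 3.87 TPM in matNeu cells. Dnajb11, a J-domain protein that hands clients to BiP, had 232, 267 and 211 TPM, then 113, 136 and 141 TPM, then 49.1, 39.1 and 44.6 TPM. The fall of Dnajb11 at the first step (−0.86) was not called after median centring. Dnajc3, a J-domain protein also known as an inhibitor of PERK, had 121, 122 and 131 TPM, then 52.1, 53.1 and 55.2 TPM, then 13.3, 11.4 and 14.2 TPM. Sdf2l1, a subunit of chaperone complexes with Dnajb11, had 519.9, 402 and 486 TPM, then 80.1, 77.9 and 63.2 TPM, then 1.00, 3.16 and 2.48 TPM. With a log2 change of −7.25 from GMPs to matNeu cells (SE 0.25, adjusted p = 1.29e-09), Sdf2l1 fell by more than any other of the 38 genes on the log2(TPM + 1) scale. Manf, an ER-resident factor that binds BiP and can be secreted, had 238, 245 and 258 TPM, then 81.8, 62.5 and 51.4 TPM, then 4.36, 4.89 and 4.29 TPM. Manf shares exon sequence with Rbm15b and, on the other strand, Dcaf1, and how reads of overlapping genes were assigned is not given in the sources used here.

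Dnajb9 was the exception among the co-chaperones. It encodes a J-domain protein that represses IRE1 through BiP and is a classical target of XBP1. It had 107, 104 and 96.6 TPM in GMPs, 35.9, 49.9 and 50.1 TPM in preNeu cells and 137, 92.6 and 73.2 TPM in matNeu cells. The preNeu libraries lay below all others, with changes of −1.17 (SE 0.22, adjusted p = 0.00092) and 1.10 (SE 0.22, adjusted p = 0.00111). Between GMPs and matNeu cells the groups overlapped and no difference was called (−0.07, adjusted p = 0.785), whereas matNeu cells were higher with size factors (0.81) and after median centring (1.33).

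The lectin chaperones, which hold glycoproteins until they are folded, fell further than any other group: their summed TPM was 2827 ± 191, 399 ± 47.7 and 58.3 ± 11.4 (SD, n = 3 per stage), a 48.5-fold fall from GMPs to matNeu cells. Calr, encoding the soluble calreticulin, was the most abundant of the 38 genes in GMPs, with 1991, 2254 and 1959 TPM. It had 163, 199.5 and 235 TPM in preNeu cells and 25.5, 23.7 and 34.8 TPM in matNeu cells. Its fall at the first step (−3.38, SE 0.17, adjusted p = 1.42e-07) was the largest of the 38 genes there on the log2(TPM + 1) scale, close to that of Ern1 (−3.36), which led without the abundant genes (−3.07 against −3.00). Canx, encoding the membrane-bound calnexin, had 842, 762 and 673 TPM, then 186, 204 and 209 TPM, then 27.8, 26.6 and 36.5 TPM. The calreticulin transcript fell more at the first step than at the second (−3.38 and −2.79) and the calnexin transcript less (−1.92 and −2.70), although whether these steps differ was not tested.

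The protein disulfide isomerases and their oxidase form and reshuffle the disulfide bonds of secreted proteins. P4hb, the prototype of the isomerases, had 1572, 1718 and 1421 TPM in GMPs, 450.4, 529.8 and 571 TPM in preNeu cells and 53.7, 44.5 and 72.0 TPM in matNeu cells, and was the most abundant of the 38 genes in preNeu cells. Pdia3, which works with calreticulin and calnexin, had 1283, 1330.4 and 1103 TPM, then 377, 426 and 463 TPM, then 67.5, 60.0 and 124 TPM. Pdia6 had 946, 1081 and 892 TPM, then 121, 158 and 141 TPM, then 20.0, 24.4 and 21.5 TPM. None of these isomerases overlapped between stages, which held for most genes tested in each comparison. Pdia4 had 457, 479.9 and 454 TPM, then 63.9, 48.0 and 71.6 TPM, then 1.82, 4.39 and 4.29 TPM, with a log2 change of −6.75 from GMPs to matNeu cells (SE 0.25, adjusted p = 1.96e-09). Creld2, an ER stress-induced protein with isomerase activity, had 214, 203 and 198 TPM, then 60.0, 76.6 and 79.8 TPM, then 24.3, 22.3 and 22.2 TPM. These 5 genes fell at both steps under the 4 scalings tried. Exons of Pdia3 and Pdia6 overlap Catsper2 and Atp6v1c2 on the other strand.

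Ero1l, the oxidase that recharges the isomerases and is known to be induced by hypoxia, ran against the group. It had 144, 135 and 129.5 TPM in GMPs, 297, 285 and 348 TPM in preNeu cells and 41.3, 39.6 and 26.4 TPM in matNeu cells. All preNeu libraries were above all GMP libraries (1.18, SE 0.17, adjusted p = 0.000176), and all matNeu libraries below both (−3.10 from preNeu cells, SE 0.17, adjusted p = 7.30e-08). Ero1l and Edem1 were the 2 of 38 genes (5.26%) that stood highest in preNeu cells, a course that 5.63% of all genes tested took. The peak of Ero1l in preNeu cells was called under each of the 3 other scalings.

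The channel and its helpers, through which new chains enter the ER, went from 3002 ± 23.6 TPM over 963 ± 38.7 to 403 ± 30.9 TPM (SD, n = 3 per stage). From GMPs to matNeu cells this was a 7.44-fold fall, beside 9.01-fold for the chaperones, 48.5-fold for the lectin chaperones and 20.4-fold for the disulfide genes. Sec61a1, the pore-forming subunit, had 534, 597 and 507 TPM in GMPs, 149.8, 157 and 180.0 TPM in preNeu cells and 84.8, 77.4 and 107 TPM in matNeu cells. Its fall at the second step (−0.86) was not called after median centring. Sec61b had 92.2, 179 and 135 TPM, then 58.4, 54.6 and 54.7 TPM, then 71.1, 41.5 and 28.7 TPM, so that preNeu and matNeu libraries overlapped (−0.34, adjusted p = 0.364). Sec61g, the small subunit, was low and varied between libraries of the same stage, with 25.0, 18.3 and 6.65 TPM, then 2.12, 8.25 and 2.66 TPM, then 1.41, 0.794 and 0 TPM. Its falls of −1.73 and −1.54 at the 2 steps (adjusted p = 0.0194 and 0.0305) were lost after leaving out any of several libraries, with values of −1.36 without GMP replicate 1 and −1.05 without preNeu replicate 2. Sec62 and Sec63, which serve the entry of finished chains, had a mean of 42.7 and 18.9 TPM in GMPs and of 21.3 and 4.08 TPM in matNeu cells. From GMPs to matNeu cells both were called lower on the TPM scale (−0.97 and −1.98), and neither after median centring, where Sec62 turned to 0.43.

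The 4 genes of the translocon-associated protein complex (TRAP), which assists the entry of certain chains, all fell in preNeu cells. Ssr1 had 259, 244 and 204 TPM in GMPs, 75.3, 79.0 and 83.7 TPM in preNeu cells and 18.7, 18.9 and 22.4 TPM in matNeu cells. Ssr2 had 580.5, 429.9 and 594 TPM, then 100.4, 118 and 90.0 TPM, then 17.2, 27.1 and 15.1 TPM. Ssr3 had 474, 456 and 436 TPM, then 148, 127 and 171 TPM, then 66.4, 53.9 and 69.4 TPM. In these 3 genes no stages overlapped and both falls were called under the 4 scalings. Ssr4 had 195, 234 and 259 TPM, then 75.7, 62.8 and 62.2 TPM, then 59.5, 50.4 and 45.8 TPM, and its second step was not called (−0.36, adjusted p = 0.0629), although it was without the abundant genes (−0.65). Subunits of 1 complex thus differed in their second step, from −2.35 for Ssr2 (SE 0.22) to −0.36 for Ssr4 (SE 0.15). Of the signal peptidase, which removes the signal peptide, Spcs2 had 705, 639 and 658 TPM, then 213, 217 and 231 TPM, then 42.5, 42.6 and 50.0 TPM. Spcs1 had 109.8, 125 and 127 TPM, then 85.5, 79.2 and 77.7 TPM, then 50.0, 37.8 and 33.2 TPM. The fall of Spcs1 at the first step (−0.57, adjusted p = 0.0103) was not called under the other scalings, and after median centring its value was 0.061.

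**Figure D3:**
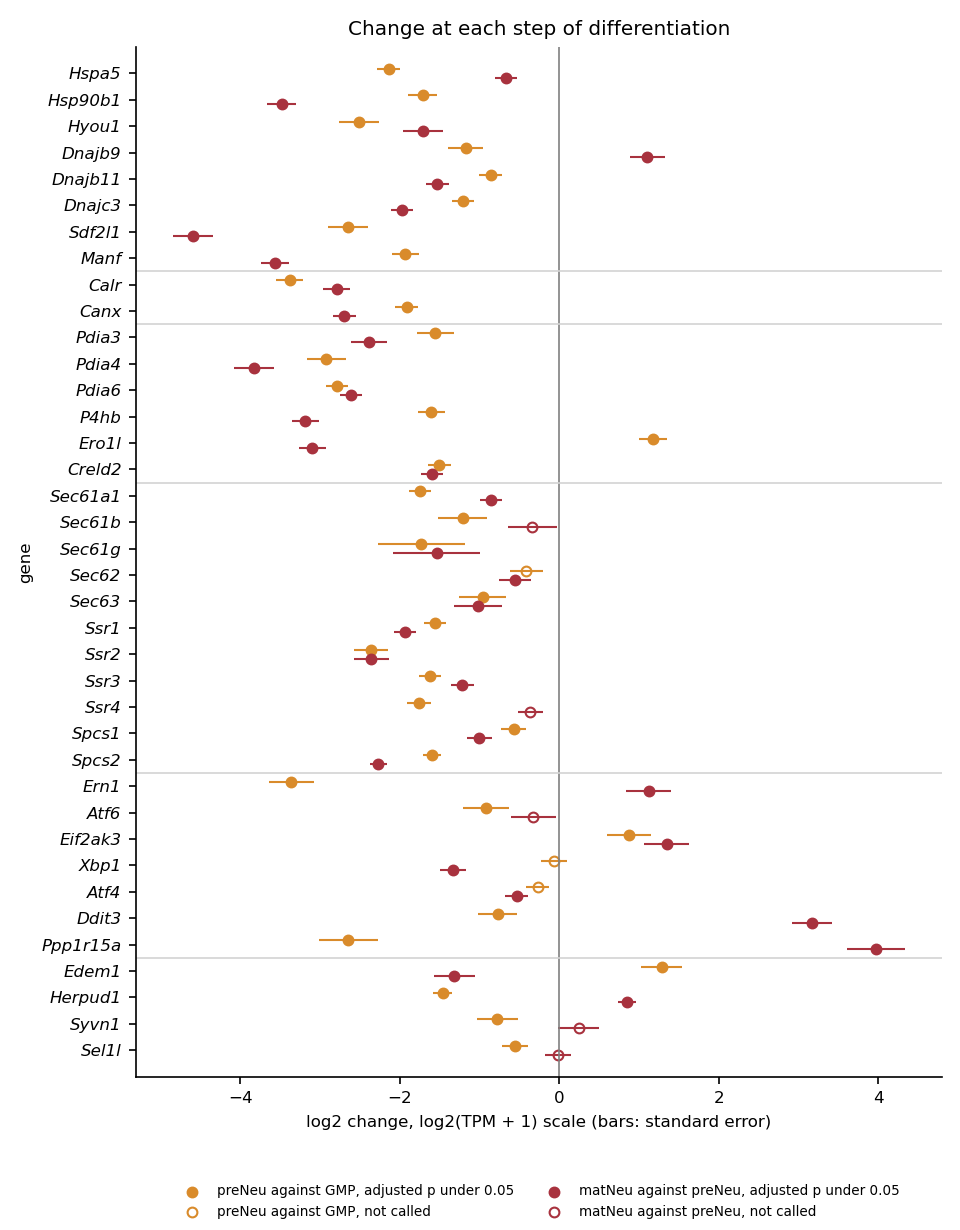
Log2 change of each of the 38 genes from GMPs to preNeu cells (orange) and from preNeu to matNeu cells (red) on the log2(TPM + 1) scale, with standard errors. Filled points passed an adjusted p under 0.05. The chaperones and isomerases lie to the left at both steps except Dnajb9 (1.10 at the second), and Ddit3 (3.17) and Ppp1r15a (3.97) lie furthest to the right at the second.

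The sensors and response factors did not move as a group. At the first step 4 of 7 fell and 1 rose, at the second 2 fell and 4 rose, and from GMPs to matNeu cells 4 fell and 3 rose. Their summed TPM fell 1.51-fold from GMPs to matNeu cells, beside 1.45-fold for the ERAD genes and at least 7.44-fold for the other groups, and their share of the TPM of the 38 genes rose from 4.57% in GMPs to 12.3% in preNeu and 24.3% in matNeu cells, while that of the lectin chaperones went from 17.7% to 8.05% and 2.93%.

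The 3 sensors took different courses. Ern1, encoding IRE1, the kinase and RNase that splices Xbp1 mRNA, had 50.8, 58.2 and 44.2 TPM in GMPs, 2.62, 5.04 and 4.81 TPM in preNeu cells and 12.4, 6.78 and 11.6 TPM in matNeu cells. The fall by 3.36 on the log2 scale (SE 0.28, adjusted p = 4.49e-06) was followed by a rise of 1.12 (SE 0.28, adjusted p = 0.00508), so that matNeu libraries lay between the other stages with no overlap. Eif2ak3, encoding PERK, the kinase that phosphorylates eIF2 alpha, was the only gene of the 38 that rose at both steps (2.63%, against 5.30% of all genes). It had 5.84, 6.69 and 12.2 TPM, then 12.7, 15.5 and 17.98 TPM, then 33.8, 37.97 and 51.0 TPM. Its first rise (0.87, adjusted p = 0.0194) was lost without GMP replicate 1, GMP replicate 2 or preNeu replicate 3 (0.69, 0.77 and 0.76), and its second (1.35, SE 0.28, adjusted p = 0.00147) was not lost under any alternative. Atf6, the membrane-bound factor released by proteolysis, had 19.8 to 21.3 TPM in GMPs, 9.23 to 11.04 TPM in preNeu cells and 6.04 to 13.6 TPM in matNeu cells. Its first fall (−0.92, adjusted p = 0.0173) was not called under the other scalings, and its second step was not called (−0.33, adjusted p = 0.343).

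Xbp1, the factor that IRE1 activates by splicing, had 487, 453 and 457 TPM in GMPs, 381, 459.7 and 505 TPM in preNeu cells and 165, 147 and 225 TPM in matNeu cells. Its transcript was kept in preNeu cells, where GMP and preNeu libraries overlapped (−0.06, adjusted p = 0.763), and fell in matNeu cells (−1.34, SE 0.16, adjusted p = 3.19e-05). With size factors and after median centring Xbp1 was higher in preNeu cells than in GMPs (0.45 and 0.57), so that it then joined the genes highest in preNeu cells. TPM per gene does not separate spliced from unspliced Xbp1. Atf4, whose translation rises when eIF2 alpha is phosphorylated, had 140.1, 148 and 143 TPM, then 109.9, 120.4 and 127 TPM, then 86.5, 66.7 and 95.4 TPM. Its first step was not called (−0.27, adjusted p = 0.134) and was called higher after median centring (0.36), and its second (−0.53, adjusted p = 0.00766) turned to 0.23 after median centring.

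Ddit3 and Ppp1r15a, known as stress-induced genes downstream of PERK, rose at the last step. Ddit3, encoding the transcription factor CHOP, had 20.2, 22.3 and 19.5 TPM in GMPs, 15.1, 14.6 and 7.08 TPM in preNeu cells and 125, 110.8 and 102.5 TPM in matNeu cells. Every matNeu library was above every other library (3.17 from preNeu cells, SE 0.25, adjusted p = 1.10e-06), while the small first fall (−0.77, adjusted p = 0.0207) was not called under any other scaling. Exons of Ddit3 overlap Mars on the other strand and another model of the same gene. Ppp1r15a, encoding GADD34, which returns a phosphatase to eIF2 alpha, had 23.1, 12.5 and 19.9 TPM, then 1.45, 1.45 and 3.63 TPM, then 55.6, 28.6 and 63.0 TPM. It fell by 2.65 on the log2 scale (SE 0.37, adjusted p = 0.000134) and rose by 3.97 (SE 0.37, adjusted p = 3.90e-06), the largest rise of the 38 genes. With Dnajb9, Ern1 and Herpud1, these were the 5 genes (13.2%) lowest in preNeu cells, a course that 6.47% of all genes took, and Ddit3 left it under each of the other scalings.

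Genes of ERAD, which returns misfolded proteins to the cytosol for degradation, summed to 493 ± 23.1, 298 ± 32.8 and 339 ± 26.5 TPM (SD, n = 3 per stage), with overlap between preNeu and matNeu libraries, and took different courses. Edem1, which extracts misfolded glycoproteins, had 31.4, 48.5 and 45.6 TPM in GMPs, 95.5, 113 and 97.7 TPM in preNeu cells and 27.8, 39.0 and 60.0 TPM in matNeu cells. The preNeu libraries stood above all others (1.28, SE 0.26, adjusted p = 0.00156, then −1.31, adjusted p = 0.00111), although the second change was not called after median centring. Herpud1, a scaffold of the ERAD ubiquitin ligase and the only one of the 4 called lowest in preNeu cells, had 333, 354 and 323 TPM, then 108, 132 and 125 TPM, then 203, 236 and 221 TPM. It fell and rose again without overlap between stages (−1.46 and 0.85, SE 0.12 each, adjusted p = 2.92e-06 and 7.25e-05). Sel1l, the partner of the ligase, had 85.9, 77.3 and 72.3 TPM, then 44.0, 53.1 and 63.8 TPM, then 57.4, 47.3 and 53.7 TPM. Syvn1, the ligase itself, ranged from 28.2 to 40.2 TPM in GMPs, from 13.3 to 25.8 TPM in preNeu cells and from 22.4 to 27.5 TPM in matNeu cells. The first falls of Sel1l and Syvn1 (−0.55 and −0.78, adjusted p = 0.0132 and 0.0227) were not called under the other scalings, and neither was called at the second step on the TPM scale (−0.01 and 0.24, adjusted p = 0.962 and 0.434). With size factors and after median centring both were called higher at that step (0.35 and 0.75 for Sel1l, 0.60 and 1.01 for Syvn1).

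**Figure D4:**
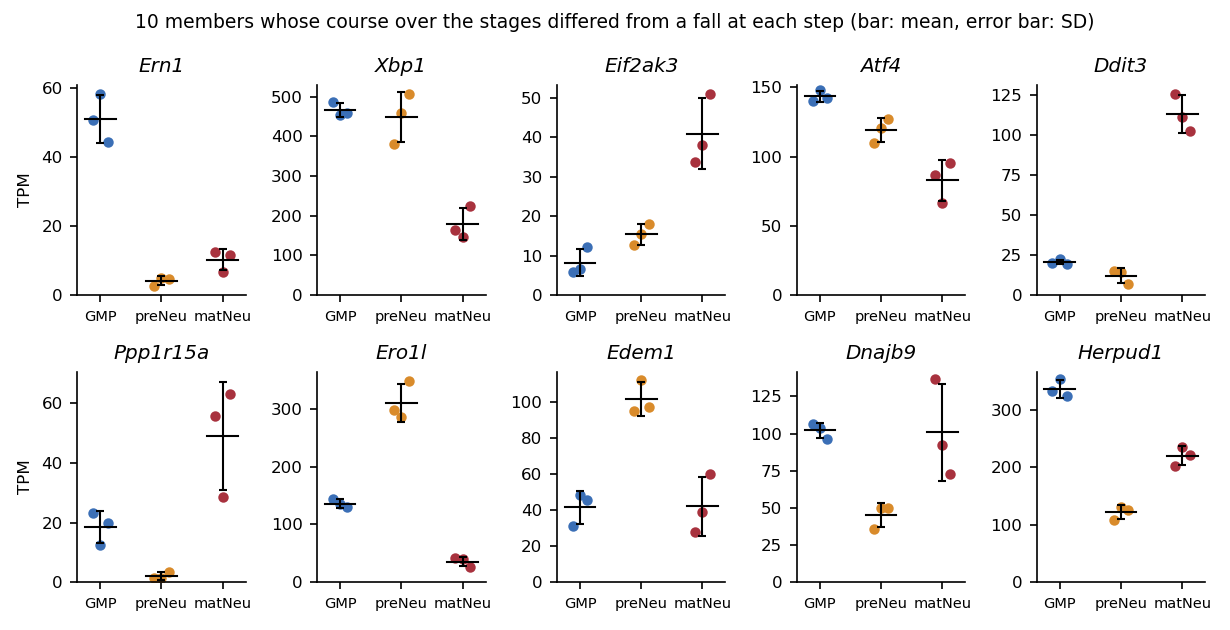
TPM of 10 genes in every library (points), with the mean and SD of the 3 libraries of each stage, on linear axes from 0. Ero1l and Edem1 peak in preNeu cells, Ern1, Ppp1r15a, Dnajb9 and Herpud1 are lowest there, and Eif2ak3, Ddit3 and Ppp1r15a are highest in matNeu cells.

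Other genes of the same pathways were counted in lists of their own, each chosen with earlier results of these data known. The oligosaccharyltransferase, which attaches glycans to the chains, went with the chaperones: 11 of 12 genes fell at each step. Its most abundant gene Rpn1 had a mean of 1132, 277 and 54.6 TPM, and Ddost fell most from GMPs to matNeu cells (−6.52). Of 25 further folding genes 20 fell and 2 rose at the first step and 17 fell and 1 rose at the second, with Erp29 at a mean of 559.6, 109 and 147 TPM. At the first step Dnajb14 rose by 1.64 and Txndc5 fell by 5.07. Of 24 rows of translocation genes, 18 fell at the first step and 20 at the second and none rose. Among them Srprb, of the signal recognition particle receptor, fell by 2.42 at the first step and by 5.27 from GMPs to matNeu cells. Of 23 genes of traffic between ER and Golgi, 21 fell at the first step and 15 fell and 3 rose at the second. Lman1, a cargo receptor, fell by 6.20 from GMPs to matNeu cells and Preb rose by 1.38. After median centring 10 genes of the oligosaccharyltransferase fell and 1 rose at the first step and 9 fell and 1 rose at the second, while fewer falls were called in the other lists. Of the folding genes 12 fell and 2 rose, then 11 fell and 5 rose, and of the translocation genes 9 fell and 2 rose, then 12 fell and 4 rose. Of the traffic genes 6 fell and 1 rose, then 10 fell and 10 rose, with medians of −0.16 and −0.27 in place of −0.79 and −1.03, so that their fall at the second step depended on the scaling.

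The lists on the side of stress signalling were again mixed. Of 18 tested targets of PERK and ATF4, 8 fell and 4 rose at the first step and 7 fell and 7 rose at the second. Phgdh, of serine synthesis, had a mean of 879.6, 32.6 and 2.55 TPM over the stages, Chac1, which degrades glutathione, 1.37, 28.0 and 68.6 TPM, and Slc7a11, the cystine transporter, 1.45, 1.27 and 101.2 TPM. After median centring 7 fell and 5 rose, then 6 fell and 9 rose, and the median of this list went from −0.18 and −0.31 to 0.45 and 0.45. Of 16 other sensors and factors 10 fell and 3 rose at the first step and 8 fell and 2 rose at the second, with Eif2s1, encoding eIF2 alpha itself, at 389, 136 and 7.96 TPM and Tmbim6, an inhibitor of ER stress-induced death, at 841, 1197 and 1226 TPM. After median centring 7 of these 16 fell and 5 rose, then 3 fell and 8 rose. Of 23 other ERAD genes 13 fell and 3 rose from GMPs to matNeu cells on the TPM scale, whereas 6 fell and 13 rose with size factors and 3 fell and 15 rose after median centring. This list therefore had no direction that held across scalings, and Selenos fell by 3.53 on the TPM scale.

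Markers of other cells moved with the stages too. The 6 markers of eosinophils, basophils and mast cells summed to 1239 to 1512 TPM in GMPs, 118 to 169 TPM in preNeu cells and 2.27 to 9.32 TPM in matNeu cells, and 6 of 6 fell from GMPs to matNeu cells. The 6 markers of monocytes and dendritic cells summed to 1620 to 1952, 36.1 to 61.5 and 274 to 383 TPM, and 4 of 6 fell from GMPs to matNeu cells. GMPs are the precursors of these lineages as well. The 8 markers of B and plasma cells, the latter rich in ER, summed to 541 to 658, 289 to 357 and 649 to 859 TPM, mostly Ighm, and 5 rose and 1 fell from GMPs to matNeu cells, with Igkc at 0 TPM in all GMP libraries and at 52.3 to 206 TPM in matNeu libraries. The defining plasma cell genes were at or near 0: Mzb1 reached at most 2.18 TPM, Sdc1 at most 1.47 TPM and Jchain 12.9 TPM in 1 matNeu library and at most 4.74 TPM in the others. T and NK cell markers summed to 461 to 613, 217 to 252 and 8.99 to 16.0 TPM, nearly all of it Nkg7, erythroid markers to no more than 15.6 TPM and megakaryocyte markers to no more than 49.8 TPM in any library. The part of these cells in the levels of the ER genes was not tested.

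CHD4 summits at the promoters of the ER genes were few, as at protein-coding promoters in general. In WT GMPs 2 of 38 promoters (2 kb upstream to 500 bp downstream of the start, GRCm38) held a CHD4 summit, 5.26% (95% Wilson interval 1.46 to 17.3), beside 8.08% of all 21938 protein-coding promoters and 12.2% of those of expressed genes. The interval holds both shares. Hsp90b1 had a peak at chr10:86706221-86706804 with its summit at −1174 bp from the start and a fold enrichment of 7.76, and Sec63 a peak at chr10:42760394-42760667 with its summit at −986 bp and a fold of 7.14. Both peaks were ordinary in a list with a median fold of 7.72. In Gfi1-/- GMPs none of the 38 promoters held a summit (upper limit of the interval 9.18%), beside 1.57% of all protein-coding promoters and 2.35% of those of expressed genes. With 1 library per genotype, no difference between them was tested, and the intervals cover counting error only.

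Around the genes, from 10 kb before to 10 kb after each, 13 of the 38 (34.2%) had a CHD4 summit in WT GMPs and 4 (10.5%) in Gfi1-/- GMPs, beside 32.3% and 10.2% of all protein-coding genes. The 55 WT summits were unevenly spread. Ern1, a gene of 93203 bp, held 23 of them, a number that 95 protein-coding genes (0.433%) reached, and Atf6 held 8. The strongest peak of Ern1, at chr11:106471327-106472104, lay 16054 bp downstream of the start within the gene and had a fold of 41.8, above 98.3% of the list. The WT list held 35790 peaks and the Gfi1-/- list 7316, so that 18.5% of all WT peaks overlapped a Gfi1-/- peak and 99.0% of all Gfi1-/- peaks a WT peak, beside 12 of the 55 WT peaks at the ER genes (21.8%). Of the 23 WT peaks at Ern1, 7 overlapped a peak of Gfi1-/- GMPs, as did 2 of 2 at Ssr3, 2 of 8 at Atf6 and 1 of 2 at Eif2ak3, whereas those of the other 9 genes overlapped none. Ero1l (35685 bp) and Edem1 (30716 bp), the genes highest in preNeu cells, each had 4 WT summits near them. Hspa5 (5578 bp), Calr (5085 bp) and P4hb (12956 bp) had none, and a longer gene has a wider window. Genes that fell from GMPs to preNeu cells on the TPM scale had summits too, with 3 at Ssr1, 8 at Atf6 and 23 at Ern1. A relation between CHD4 summits and the course of the transcripts was not tested.

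H3K4me2, a mark of promoters and enhancers in use or poised, was present at nearly all of these promoters at every stage. A peak overlapped 36 of 38 promoters in GMPs, 37 in preNeu and 37 in matNeu cells (94.7%, 97.4% and 97.4%), beside 59.4%, 59.3% and 56.9% of all protein-coding promoters. Among protein-coding genes that passed the expression filter the shares were 86.7%, 89.4% and 88.1%. The promoter of Ssr2 had no peak at any stage and that of Spcs2 none in GMPs. With any annotated transcript start of a gene counted, all 38 were marked at each stage, a wider rule for which the share of all genes was not counted. When peaks had to reach 5 on the −log10 q scale, 12 promoters kept one in GMPs, 37 in preNeu and 36 in matNeu cells. The share of all genes under this limit was not counted either. Without the limit, the median fold of the peaks at these promoters was 3.49, 10.6 and 8.49, beside 2.89, 4.55 and 3.78 over each whole list. Fold was read within a list only, and folds of different stages were not compared. The fall of most ER transcripts thus went without loss of the peak at the promoter, which 36 of 38 genes had at each stage without that limit. The width of promoter covered did vary: its median was 49.95% in GMPs, 73.55% in preNeu and 60.0% in matNeu cells, and 2, 9 and 2 promoters were covered whole. This coverage was not counted over all promoters. The lists as a whole also differed, with a median peak width of 909, 1223 and 1136 bp, so that the pattern need not be particular to these genes. Hspa5 went from 50.5% over 100% to 79.2%, Calr from 100% over 100% to 79.7%, and Ero1l from 49.4% over 100% to 77.5%. The depth of these libraries is unknown and each stage had 1 library, so that such differences between stages had no replicate check.

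Over the whole gene, the part under H3K4me2 peaks had a median of 15.2%, 21.6% and 15.3% in the 3 stages, a part that was not counted over all genes. Eif2ak3, whose transcript rose at both steps, had 3.80%, 21.6% and 28.9% of its length covered, and Ern1 22.4%, 22.9% and 9.82%. Hspa5 had 82.8%, 83.3% and 34.9%, and Calr 81.1%, 74.6% and 41.3%. These are examples. From GMPs to preNeu cells the median coverage rose, from 15.2% to 21.6%, whereas 32 of the 38 transcripts fell on the TPM scale. Coverage and transcript thus did not generally go together at that step. P4hb, whose transcript fell at both steps, had 17.8%, 22.1% and 22.3%. Ppp1r15a had 37.1%, 49.5% and 21.7%, widest in preNeu cells, where its transcript was lowest. The relation over the 38 genes was not tested. Within each list the peaks at these promoters were wide, with a median of 2785, 4081 and 2982 bp beside 909, 1223 and 1136 bp over all peaks. ATAC-seq peaks overlapped 33 of 38 promoters (86.8%), beside 35.8% of all protein-coding promoters and 62.5% of those of expressed genes. Sdf2l1, Ssr2, Spcs2, Atf6 and Ppp1r15a had none. ATAC-seq peaks at these promoters had a median width of 866 bp and covered at least 50% of 2 promoters. The peak lists titled preNeu and matNeu hold the same 16307 peaks, and the stages could therefore not be compared.

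**Figure D5:**
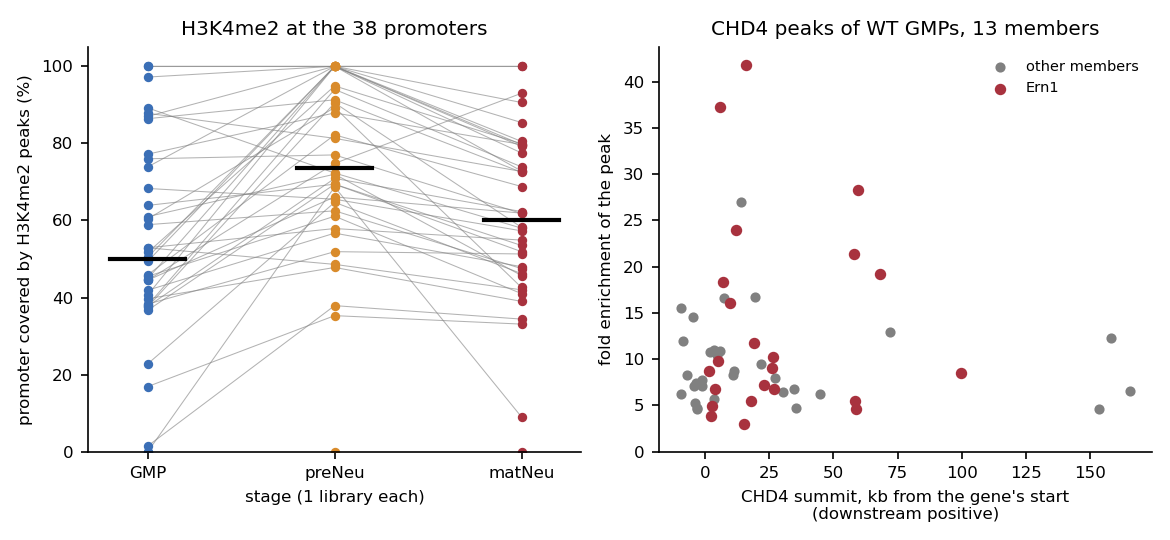
Left, percent of each of the 38 promoters covered by H3K4me2 peaks in GMP, preNeu and matNeu cells (points and lines per gene, bar: median of 49.95%, 73.55% and 60.0%). Right, fold enrichment of the 55 CHD4 peaks of WT GMPs within 10 kb of 13 of the genes, by distance of the summit from the gene's start in kb, where the 23 peaks of Ern1 (red) reach a fold of 41.8.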

How the data were processed

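Samples were grouped by their titles. For RNA-seq, 1 table of 34896 genes holds the TPM of each library as the authors deposited it. For ChIP-seq and ATAC-seq the authors deposited peaks, each with its fold enrichment (a linear ratio) and −log10 q-value from the peak caller. The submitters' processing notes name Trimmomatic 0.36, BWA 0.7.17, MACS2 2.1.0 and kallisto 0.44.0 with FastQC 0.11.5 and MultiQC 1.6 and the build mm10. The libraries were made with a stranded kit, and how strand was used in quantification is not given in the sources used here. TPM keeps no counts, so that a count test could not be used and the depth of each library is unknown. No value column of the table was left unused (0 columns). The lists for GFI1 and H3K4me3 are in coordinates of another genome and were not used here.

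The 38 genes and the further lists were chosen with earlier results of these data known. All 38 are described. TPM in every library is given for those with a mean of at least 50 TPM in a stage or a log2 change of at least 2 either way in a comparison. Of each other list the counts and, as examples, genes picked by level or by change are given (highest mean TPM, and largest called change each way in preNeu cells and matNeu cells against GMPs). One such example is not reported here. Stages were compared by limma 3.58.1 (R 4.3.3) after taking log2(TPM + 1), a scale that understates the change of low genes, for the 13061 genes that reached 1 TPM in at least 3 libraries. All 9 libraries entered 1 fit with stage as the only term and a variance trend, and Benjamini-Hochberg adjusted p-values over all genes tested were read at 0.05. With 3 libraries against 3, an exact permutation test of a single gene cannot go below 0.1, and none was used. In simulated data on which it was tested (the comparison of matNeu cells with GMPs, 13061 genes), 98 of 110 genes changed by 2 on the log2 scale were called and 32 of 90 changed by 1, with 10 false calls among 140. No other gene was changed there, and the noise was drawn from a normal distribution. In the real comparison 2976 genes were called higher and 7065 lower, so that these rates need not hold for it.

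A promoter was the stretch that begins 2 kb before and ends 500 bp after a gene's 5′ end in GENCODE M21 (GRCm38). A CHD4 peak counted by its summit, H3K4me2 and ATAC-seq peaks by an overlap of at least 1 bp. Shares carry 95% Wilson intervals, which cover counting error only. Motifs were searched in the RefSeq promoter windows of GRCm38.p6. Peaks and sequences were handled in Python 3.11.15 (pandas 2.3.3, numpy 2.4.6, scipy 1.17.1), and plots were drawn with matplotlib 3.10.9. A planned count of proteins that end in an ER retention signal was not run, as protein sequences were not used here. Alternatives were a pseudocount of 0.1, other filters, 3 other scalings, fits of the compared stages alone, with the replicate number as a block or without the variance trend, a minimum log2 change of 1, leaving out each library, a −log10 q-value of at least 5, other promoter windows and overlaps, and shorter motif windows.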

Additional observations from a re-analysis of the deposited data

How the results depend on the processing

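Of 2052 values of single genes under alternatives, 1927 kept their direction and their side of the threshold, 67 lost their call and 12 gained one. Direction turned in 46 values, of which 23 were called in at least 1 of the fits compared and 23 in neither. The called turns all came from rescaling, as did 15 of the uncalled ones, and the cause was not tested beyond the shift of the median gene that the scalings make. After median centring, the change from GMPs to preNeu cells was 0.57 for Xbp1, 0.36 for Atf4, 0.079 for Sel1l and 0.061 for Spcs1, and from preNeu to matNeu cells 0.23 for Atf4, 0.098 for Hspa5, 0.21 for Sec62 and 0.75 for Sel1l. From GMPs to matNeu cells it was 0.59 for Atf4, 0.15 for Atf6, 1.33 for Dnajb9, 1.37 for Edem1, 0.78 for Herpud1, 0.43 for Sec62, 0.83 for Sel1l and 0.86 for Syvn1. With size factors, Xbp1 turned to 0.45 from GMPs to preNeu cells, Sel1l to 0.35 from preNeu to matNeu cells, and from GMPs to matNeu cells Atf4 turned to 0.077, Dnajb9 to 0.81, Edem1 to 0.83, Herpud1 to 0.27 and Sel1l to 0.31. Of the falls of the 38 genes, 23 of 32, 19 of 27 and 23 of 32 were called under all alternatives but the minimum change in the 3 comparisons, and of the rises 2 of 3, 6 of 6 and 3 of 3. With a log2 change of at least 1 asked for, 25, 23 and 28 of the 38 genes were lower and 2, 5 and 3 higher. The median log2 change of the 38 genes was −1.04, −1.17 and −0.92 from GMPs to preNeu cells with size factors, without abundant genes and after median centring, −0.96, −1.61 and −0.56 from preNeu to matNeu cells, and from GMPs to matNeu cells −1.62 with size factors and −1.10 after centring. It ranged from −1.62 to −1.45 when a library was left out of the first comparison. Genes higher among the 38 numbered 5 from GMPs to preNeu cells after centring, and 6 with size factors and 9 after centring from GMPs to matNeu cells. Over all genes, 3033 rose and 3611 fell with size factors and 3828 rose and 3166 fell after centring from GMPs to preNeu cells, where 1276 rose by at least 1 on the log2 scale. From preNeu to matNeu cells 5530 rose and 3251 fell after centring, and from GMPs to matNeu cells 4586 rose with size factors, and 6023 rose and 4063 fell after centring. The summed TPM of the 38 genes was 11175 in GMPs and 2569.7 in matNeu cells with size factors, and 17666, 7151 and 2351 over the stages without abundant genes. That of the granule lists was 33386 in GMPs and 24894 in matNeu cells with size factors.

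No label says that a replicate number marks an animal or a day, and residuals of libraries with the same number correlated at −0.039 to 0.12, over 0.1 in 1 of 9 cases, with 4 of 9 libraries closest to their own number. The numbers were therefore not treated as pairs. With the replicate number as a block 32 of the 38 genes fell and 3 rose from GMPs to preNeu cells, 27 fell and 6 rose from preNeu to matNeu cells, and 33 fell and 3 rose from GMPs to matNeu cells, where Syvn1 was added (−0.53, limma adjusted p = 0.0341).

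With a window of 1 kb before and 1 kb after the start, 1 of the 38 genes had a CHD4 summit in WT GMPs, and with any transcript start 5 had one in WT and 1 in Gfi1-/- GMPs. At a −log10 q-value of at least 5, 12 promoters had an H3K4me2 peak in GMPs, and 19 were covered to at least 50%, and 2 were so covered by ATAC-seq peaks. Shares of all genes were not counted under these alternatives for peaks. Within 100 bp before the start, 3 windows held the ERSE, 1 the ERSE-II and 0 the UPRE core or the ATF4 element, in a window that is shorter by construction.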
